A study of Rattus norvegicus with 18 samples.

Results

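The genes described here mostly encode nuclear subunits of the respiratory chain and of ATP synthase in rat liver. Members were the protein-coding rows of the deposited gene table that lie outside the mitochondrial chromosome and whose symbols begin with Ndufa, Ndufb, Ndufc, Ndufs, Ndufv, Uqcr, Atp5 or Cox4 to Cox8, or are Sdha, Sdhb, Sdhc or Sdhd. This gave 95 of 33657 rows (93 symbols) on 20 chromosomes: 44 rows for complex I, 4 for complex II, 9 for complex III, 22 for complex IV and 16 for complex V. Ndufa4 and its relative Ndufa4l2 carry a complex I name, but Ndufa4 is counted here with complex IV, where the protein is known to sit. The symbols also bring in 8 Ndufaf genes, which encode assembly factors of complex I, and Atp5if1, an inhibitor of ATP synthase. They do not take in every nuclear subunit. Cyc1 of complex III has a symbol outside the rule, and the Ndufs6 row is a processed pseudogene, so sums over a complex are not of the whole complex.

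Liver RNA came from male rats aged 18 weeks, in 6 groups of 3 libraries each. The normal control was healthy per the labels and received water, as did the obese control. The other 4 groups were obese as well: 1 was given orlistat, a lipase inhibitor, as the positive control, and 3 ate plantain in low, medium or high doses, whose amounts the labels leave out. The labels do not say how obesity was brought about. They also do not tie each library to an animal of its own, so p-values speak only of the variation among these libraries, part of which may be technical.

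Oxidative phosphorylation couples the oxidation of NADH and succinate to ATP synthesis. Complex I takes electrons from NADH and complex II from succinate, complex III passes them to cytochrome c, complex IV hands them to oxygen, and complex V uses the resulting proton gradient to make ATP. Every complex except II also holds subunits encoded in mitochondrial DNA, so its assembly draws on both genomes. Most subunits counted here as core take part in electron transfer, proton translocation or catalysis, while the accessory subunits are mostly small proteins that stabilise the complex. The core class also takes in Uqcrc1 and Uqcrc2, whose descriptions name them core proteins of complex III, so core does not mean catalytic throughout. In liver these enzymes serve an energy-demanding, hepatocyte-rich tissue that oxidises large amounts of fatty acid.

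The promoters of 7 members are shown because these genes moved furthest or most regularly between the groups in the results that follow: Uqcrc2, Sdha and Ndufs1 were lower in obese than in normal liver, and Atp5f1e, Ndufa13, Ndufb7 and Cox4i1 were higher. Sequences are from RefSeq (build GRCr8), run 5′ to 3′ along the gene's strand from 250 bases before to 50 bases after its start, and carry in capitals the letters of 4 short motifs searched on both strands. The motifs were the NRF1 core GCATGCGC, the ETS core CCGGAAG of the kind bound by GABPA, the YY1 core GATGGCGG and the ERR element AAGGTCA. No 2 of them overlap in these promoters, and all belong to factors known to act on genes of oxidative phosphorylation.
Uqcrc2 promoter (chr1:184598990-184599289, plus strand): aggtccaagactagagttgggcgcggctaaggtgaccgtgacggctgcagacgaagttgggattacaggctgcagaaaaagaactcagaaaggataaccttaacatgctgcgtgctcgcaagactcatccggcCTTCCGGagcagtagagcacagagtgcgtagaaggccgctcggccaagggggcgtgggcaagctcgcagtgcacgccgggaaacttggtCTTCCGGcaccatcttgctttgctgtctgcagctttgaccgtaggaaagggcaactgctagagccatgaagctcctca
Sdha promoter (chr1:30764303-30764602, plus strand): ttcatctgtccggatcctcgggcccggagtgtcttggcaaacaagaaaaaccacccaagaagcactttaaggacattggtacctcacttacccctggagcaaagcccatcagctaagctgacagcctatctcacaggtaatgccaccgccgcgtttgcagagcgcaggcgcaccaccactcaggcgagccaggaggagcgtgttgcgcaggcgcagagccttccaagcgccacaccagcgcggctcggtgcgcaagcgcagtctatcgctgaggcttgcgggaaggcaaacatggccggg
Ndufs1 promoter (chr9:72073556-72073855, minus strand): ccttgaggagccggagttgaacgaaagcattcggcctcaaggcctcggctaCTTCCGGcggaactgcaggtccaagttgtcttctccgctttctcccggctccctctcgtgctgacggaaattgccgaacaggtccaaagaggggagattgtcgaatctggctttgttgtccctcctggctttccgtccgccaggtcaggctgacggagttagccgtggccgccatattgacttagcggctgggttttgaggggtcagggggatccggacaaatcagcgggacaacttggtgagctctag
Atp5f1e promoter (chr3:183680123-183680422, minus strand): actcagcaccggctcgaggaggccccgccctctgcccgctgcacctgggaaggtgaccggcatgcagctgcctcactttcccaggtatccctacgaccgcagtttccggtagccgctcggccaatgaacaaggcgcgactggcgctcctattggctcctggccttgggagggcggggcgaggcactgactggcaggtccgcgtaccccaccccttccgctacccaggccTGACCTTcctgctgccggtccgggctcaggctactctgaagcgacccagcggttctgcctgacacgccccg
Ndufa13 promoter (chr16:19560276-19560575, plus strand): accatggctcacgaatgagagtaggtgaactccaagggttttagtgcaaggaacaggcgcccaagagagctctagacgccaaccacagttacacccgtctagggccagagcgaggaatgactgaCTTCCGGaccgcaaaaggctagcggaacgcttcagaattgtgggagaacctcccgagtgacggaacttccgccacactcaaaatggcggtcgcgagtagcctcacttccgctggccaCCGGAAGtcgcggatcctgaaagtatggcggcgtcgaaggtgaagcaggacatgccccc
Cox4i1 promoter (chr19:65630133-65630432, plus strand): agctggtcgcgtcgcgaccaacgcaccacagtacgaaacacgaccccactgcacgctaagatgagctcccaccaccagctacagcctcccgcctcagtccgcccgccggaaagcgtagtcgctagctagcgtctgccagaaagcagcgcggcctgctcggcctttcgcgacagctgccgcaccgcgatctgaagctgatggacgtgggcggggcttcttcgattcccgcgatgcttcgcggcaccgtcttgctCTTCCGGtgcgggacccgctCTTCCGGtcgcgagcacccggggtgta
Ndufb7 promoter (chr19:41477242-41477541, minus strand): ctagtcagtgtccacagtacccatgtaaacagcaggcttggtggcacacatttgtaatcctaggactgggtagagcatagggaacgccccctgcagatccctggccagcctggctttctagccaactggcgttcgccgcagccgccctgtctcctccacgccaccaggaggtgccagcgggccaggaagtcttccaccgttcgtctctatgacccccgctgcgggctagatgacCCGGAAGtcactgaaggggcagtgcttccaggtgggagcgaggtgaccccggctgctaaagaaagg
Of the 7 promoters, those of Uqcrc2, Ndufa13 and Cox4i1 held 2 ETS cores each, those of Ndufs1 and Ndufb7 held 1, that of Atp5f1e held 1 ERR element, and that of Sdha held none of the 4 motifs. Promoters were found for 80 of the 93 member symbols. The ETS core was present in 22 of these 80 promoters (27.5%) and in 9.22% of all 27457 promoters of the table. The NRF1 core was present in 11 (13.8%, against 2.66% of all), the YY1 core in 10 (12.5%, against 2.19%) and the ERR element in 10 (12.5%, against 4.37%). The 27457 promoters were not restricted to genes expressed in liver, and no share over such genes was taken. Whether these motifs are more frequent in members than in other liver-expressed genes was not tested. These are matches of letters and do not show binding. ETS cores occurred both before genes that were higher and before genes that were lower in obese liver.

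Members were abundant and short. Values are FPKM, which divide the fragments of a gene by its length and by a size factor of the library. Levels can thus be compared between genes. In several libraries the size factor differed from the sum of reads over genes, by amounts that were not the same in all groups. How it was set is unknown. The part of this factor in FPKM differences between groups was not tested. Of the 95 rows, 85 passed the filter of at least 1 FPKM in at least 3 of the 18 libraries. Their mean levels ran from 2.32 to 682 FPKM with a median of 96.1, against 6.32 over the 10655 protein-coding genes that passed. Their median length was 726 bases against 2231, and 54 of the 85 (63.5%) were under 1000 bases against 12% of the protein-coding genes. All members together took between 0.808 and 0.892% of the reads of a library, and libraries held 16.6 to 26.2 M (mega) reads. Within groups the libraries lay close together, with a Pearson r across genes of at least 0.989.

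The highest member of each complex by level per length was Ndufa6 (179 FPKM), an accessory subunit of complex I, then Sdhb (126 FPKM), the iron-sulfur subunit of complex II, Uqcrq (148 FPKM) of complex III, Cox4i1 (437 FPKM) of complex IV and Atp5f1b (682 FPKM), the catalytic beta subunit of complex V. The lowest that passed were the assembly factor Ndufaf7 (2.62 FPKM), Sdhd (107 FPKM), the Uqcrb row on chromosome 7 (17.6 FPKM), Cox7a2l (42.9 FPKM) and Atp5pb (2.32 FPKM). The 4 subunits of complex II lay within a narrow band, between 107 and 126 FPKM. Assembly factors of complex I, at 2.62 to 19.3 FPKM, lay below its core subunits, at 41.6 to 104 FPKM.

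The 10 rows that did not pass were 8 isoforms known from other tissues (Cox4i2, Cox6a2, Cox6b2, Cox7a1, Cox7b2, Cox8b, Cox8c and Ndufa4l2), the extra copy Ndufa10l1 and the row Cox6c-ps1. Their mean levels ran from 0 to 0.246 FPKM. The liver forms of the same subunits were at 437 FPKM for Cox4i1, 314 for Cox6a1, 140 for the Cox6b1 row on chromosome 1, 117 for Cox7a2, 188 for Cox7b and 286 for Cox8a. In the same libraries all 5 skeletal muscle markers found in the table, among them Ckm and Acta1, lay under 1 FPKM by their means. Of 3 brown fat markers found among 4 listed, Ucp1 and Elovl3 lay under 1 FPKM and the remaining one did not. These 3 summed to 4.09 to 5.63 FPKM in the normal control and 6.68 to 8.18 in the obese control. The low dose was highest, at 11.4 to 12.4 FPKM. In contrast, 8 hepatocyte markers summed to between 68986 and 87315 FPKM. The hepatocyte sum was highest in the obese control, at 84790 to 87315 FPKM. It was 74897 to 79996 in the normal control and 68986 to 74566 with orlistat. At the low, medium and high dose it was 77478 to 81913, 76611 to 81369 and 76199 to 76337.

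Summed over a complex in FPKM, nuclear transcripts were at their highest in the obese control for complexes I, III, IV and V, and at their highest in the normal control for complex II. Complex I summed to 2750 ± 16.2 FPKM (mean ± SD, n = 3, for this and the following sums) in the normal control, 3240 ± 18.9 in the obese control, 2636 ± 49.9 with orlistat, and 2980 ± 56.6, 3023 ± 66.0 and 2700 ± 20.8 at the low, medium and high dose. Every obese control library lay above every library of the other 5 groups. Complex II summed to 501 ± 4.45 FPKM in the normal control and 449 ± 6.78 in the obese control, and to 454 ± 7.38, 453 ± 2.45, 473 ± 5.48 and 466 ± 5.57 with orlistat and at the low, medium and high dose. The normal control libraries were above all others, and the obese control overlapped the orlistat and low-dose groups.

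For complex III the sums were 780 ± 13.2 FPKM in the normal control, 880 ± 5.09 in the obese control, 753 ± 13.7 with orlistat, and 815 ± 19.4, 856 ± 15.5 and 805 ± 3.70 at the rising doses. Complex IV gave 2504 ± 55.1, 2941 ± 78.8, 2467 ± 91.4, 2640 ± 32.6, 2785 ± 111 and 2553 ± 42.9 FPKM in the same order. In complex IV the medium dose overlapped the obese control, and the low dose did not. Complex V gave 3284 ± 49.4, 3628 ± 28.5, 3099 ± 61.9, 3409 ± 36.7, 3511 ± 81.6 and 3244 ± 40.0 FPKM. The 13 mitochondrially encoded subunits, which are no members, summed to 61704 ± 3011 FPKM in the normal control, 80331 ± 2979 in the obese control, 53569 ± 3035 under orlistat, and 68574 ± 4299, 61785 ± 4821 and 42950 ± 625 at the low, medium and high dose.

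The order of these sums depended on the scale. FPKM over all genes added up to 549488 to 561499 in normal control libraries and to 600174 to 609662 in obese control libraries. TPM rescale each library to the same sum, so the size factor in FPKM cancels out. In TPM complex V was at 5918 ± 140 in the normal control and 5998 ± 92.5 in the obese control, whose libraries then overlapped, and it was highest at the medium dose, at 6196 ± 40.4. The medium dose also had the highest mean in TPM for complex III (1511 ± 35.5 against 1455 ± 5.46 in the obese control). There it overlapped the high dose, at 1507 ± 4.66. It had the highest mean for complex IV too, with libraries that overlapped the obese control (4915 ± 102 against 4862 ± 160). Complex I stayed highest in the obese control by its mean, at 5357 ± 73.3 TPM, but overlapped the medium dose at 5335 ± 34.9. Complex II stayed highest in the normal control, at 902 ± 7.20 TPM against 742 ± 14.8 in the obese control. As a share of the reads of a library, complex V was at 0.319% in the normal and 0.320% in the obese control. The other complexes kept their direction between the controls on that measure, with complex I at 0.220% and 0.240%.

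**Figure D1:**
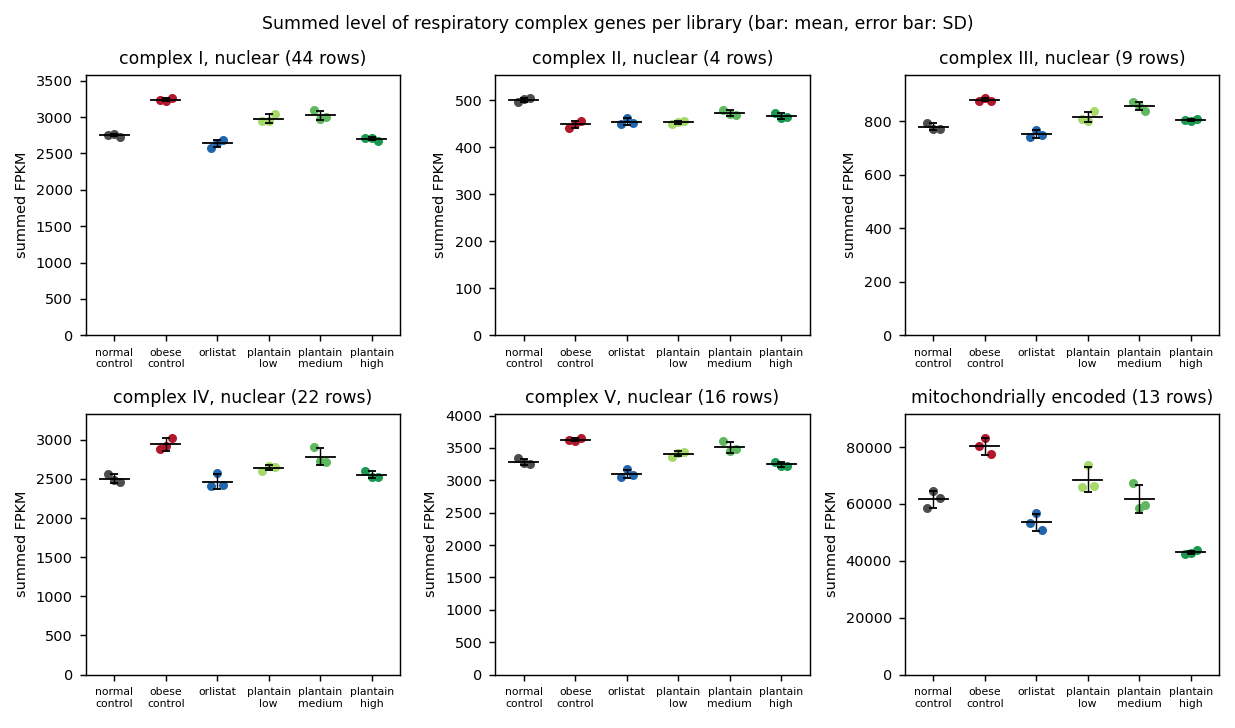
Summed FPKM of the nuclear rows of each complex and of the 13 mitochondrially encoded subunits (y axis, from 0) in the 6 groups (x axis); points are libraries, bars the mean and error bars the SD of 3 libraries. The obese control is highest in complexes I, III, IV and V, with a mean of 3240 FPKM in complex I, and complex II is highest in the normal control, at 501 FPKM.

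Obese and normal control liver differed in most members, and the counts of rises and falls went with the role of the subunit. Of the 85 members tested, 50 were higher and 10 lower in the obese control (limma, adjusted p under 0.05), where 26.7% of all 11945 genes tested were higher and 28.4% lower. The median difference over the members was 0.17 on the log2(FPKM + 1) scale, which all log2 differences here use, and 0.00 over all genes. Accessory subunits accounted for 41 of the rises and for no fall among 55 tested; none of them was lower at an unadjusted p under 0.05 either, and 1 (Cox5a) was called lower by voom on the recovered reads. Of the 21 core subunits, 7 rose and 8 fell. In TPM the core subunits gave 3 rises and 12 falls, the accessory subunits 30 rises and 4 falls, and all members 34 rises and 19 falls, where 16.5% of all genes were higher and 38.3% lower and the median of all genes was shifted by -0.11.

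By complex, 26 of the 43 tested members of complex I rose and 4 fell, and 6 of 9 in complex III rose and 2 fell. In complex IV 9 of 13 rose with no fall, and in complex V 9 of 16 rose and 1 fell. Over all genes 26.7% rose and 28.4% fell. Complex II was the exception, with 3 of its 4 subunits lower (Sdha, Sdhb and Sdhd), no rise at an adjusted or an unadjusted p under 0.05, and no call for Sdhc. Among the accessory subunits, Ndufa13 of complex I rose by 0.54 ± 0.04 (log2 difference ± SE of the limma fit), the Uqcrb row on chromosome 7 by 0.60 ± 0.11, Cox4i1 by 0.37 ± 0.02 and Atp5me by 0.58 ± 0.10. The more abundant Uqcrb row on chromosome 1 was also called higher, at means of 60.6 FPKM in the normal and 71.8 in the obese control. The largest called fall of each complex was that of Uqcrc2, a core subunit, in complex III (-0.53 ± 0.03), of the assembly factor Ndufaf4 in complex I (-0.44 ± 0.05), of Sdha in complex II (-0.38 ± 0.02) and of Atp5f1a, the alpha subunit of ATP synthase, in complex V (-0.11 ± 0.02).

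**Figure D2:**
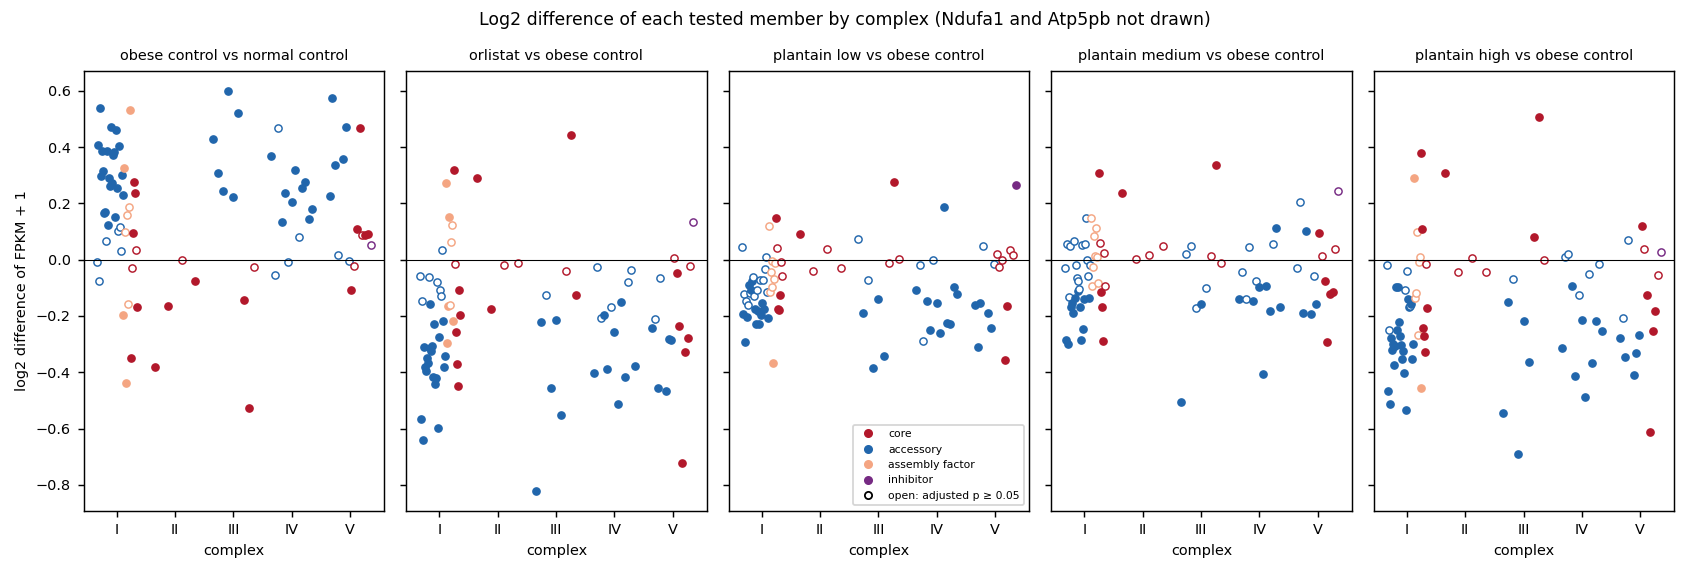
Log2 difference of FPKM + 1 (y axis) of each tested member, grouped by complex I to V (x axis), in obese against normal control and in each treatment against the obese control; colours give the role, filled points passed the adjusted p of 0.05 and open ones did not, and Ndufa1 and Atp5pb are not drawn. Accessory subunits lie mostly above 0 in obese against normal liver (41 higher) and mostly below 0 with orlistat (38 lower) and at the high dose (40 lower), while Uqcrc2, Sdha and Ndufs1 lie on the opposite side.

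All 4 treatment groups were compared with the same 3 obese control libraries, so their differences share those libraries and are given side by side. With orlistat 5 members were higher and 53 lower (26.2% and 25.6% of all genes), with a median difference of -0.22. At the low dose 5 were higher and 38 lower (18.3% and 14.8% of all genes; median -0.11), at the medium dose 6 and 31 (21.8% and 20.1%; median -0.07), and at the high dose 7 and 49 (26.6% and 25.3%; median -0.21). The medians over all genes tested lay between -0.01 and 0.01. Accessory subunits gave 0 rises and 38 falls with orlistat, 1 and 32 at the low dose, 2 and 24 at the medium dose, and 0 and 40 at the high dose. The unadjusted p was under 0.05 for 0 further rises with orlistat and for 1 at the high dose, and voom called 0 and 1 (Atp5mg).

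Core subunits were divided: 3 rose and 12 fell with orlistat, 3 and 5 at the low dose, 4 and 7 at the medium dose, and 6 and 8 at the high dose. In TPM the core subunits gave 10 rises and 5 falls with orlistat, 4 and 3 at the low dose, 13 and 2 at the medium dose, and 13 and 2 at the high dose. Accessory subunits then gave 6 and 28, 2 and 24, 10 and 10, and 6 and 25. Over all members TPM gave 21 rises and 33 falls with orlistat, where 41.8% of all genes were higher and 13.1% lower. At the low dose it gave 7 and 28 (22.4% and 10.9% of all genes), at the medium dose 26 and 12 (31.4% and 12.1%) and at the high dose 21 and 28 (43.3% and 12.4%). That scaling shifts the median of all genes by 0.15, 0.04, 0.08 and 0.15 in these comparisons, so the added rises came with a shift of all genes. At the medium dose the median of the members turned from -0.07 to 0.03, beside 0.08 over all genes in TPM.

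By complex, 28 of the 43 tested members of complex I fell with orlistat, 18 at the low dose, 15 at the medium dose and 27 at the high dose, with 3, 1, 1 and 3 rises. Over all genes 25.6%, 14.8%, 20.1% and 25.3% fell in that order, and 26.2%, 18.3%, 21.8% and 26.6% rose. Of 9 in complex III, 6, 4, 2 and 5 fell and 1, 1, 1 and 2 rose, so that the medium-dose falls were near the share of all genes. Of 13 in complex IV, 8, 9, 7 and 8 fell and 0, 1, 1 and 0 rose (for the counts of 0, no unadjusted p was under 0.05 and voom made no call). Of 16 in complex V, 10, 7, 7 and 9 fell and 0, 1, 2 and 1 rose. The orlistat count of 0 held at an unadjusted p under 0.05, and voom called 2 (Atp5f1a and Atp5f1b). Complex II differed again: Sdha rose with each of the 4 treatments, Sdhb fell with orlistat (-0.18 ± 0.03, a call that TPM did not give, at -0.01), and Sdhc and Sdhd were not called in any of the 4 in FPKM. All 4 subunits were higher at the medium dose in TPM, after quantile normalization and with the trend of the differences with gene length removed, and at the high dose in TPM.

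Uqcrc2, Sdha and Ndufs1 were the 3 members called lower in the obese control and higher in at least 3 of the 4 treatments. Uqcrc2 encodes a core protein of complex III and lies on chromosome 1, from 190555177 to 190585734 on the plus strand (coordinates as deposited, with the rat build not given in the sources used here). Its level was 69.8, 71.9 and 67.3 FPKM in the normal control libraries and 48.7, 49.1 and 46.5 in the obese control. With orlistat it was 63.9, 69.0 and 64.4 FPKM. At the low dose it was 56.9, 57.8 and 60.7 FPKM, at the medium dose 61.4, 60.7 and 60.9, and at the high dose 68.4, 68.9 and 69.0. All obese control libraries lay below all 15 others, and the high-dose and orlistat libraries reached into the normal range. The log2 differences against the obese control were 0.44 ± 0.03, 0.28 ± 0.03, 0.34 ± 0.03 and 0.51 ± 0.03 with orlistat and at the low, medium and high dose (limma, adjusted p 2.2e-08, 9.1e-06, 7.6e-07 and 5.1e-09).

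Sdha encodes the flavoprotein of complex II, which oxidises succinate in the citric acid cycle (chromosome 1, 31545631 to 31570601, plus strand). Its level was 132, 132 and 134 FPKM in the normal control and 99.7, 102 and 103 in the obese control. With orlistat it was 125, 123 and 127 FPKM, at the low dose 108, 108 and 110, at the medium dose 121, 123 and 117, and at the high dose 129, 127 and 123. The obese control was again below all other libraries, and no treated library reached the normal range. The log2 differences against the obese control were 0.29 ± 0.02, 0.09 ± 0.02, 0.24 ± 0.02 and 0.31 ± 0.02 (limma, adjusted p 5.2e-08, 0.0066, 7.9e-07 and 2.8e-08).

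Ndufs1 encodes the largest iron-sulfur subunit of complex I (chromosome 9, 69919867 to 69953182, minus strand). It was at 45.1, 43.6 and 44.4 FPKM in the normal control, 33.6, 34.9 and 35.4 in the obese control, 42.1, 45.2 and 43.2 with orlistat and 46.5, 46.5 and 43.1 at the high dose. At the low dose it was at 37.1, 40.2 and 38.2 FPKM, and at the medium dose at 44.7, 42.5 and 42.2. Orlistat, medium-dose and high-dose libraries overlapped the normal control, and the obese control overlapped no other group. The rises against the obese control were 0.32 ± 0.04 with orlistat, 0.15 ± 0.04 at the low dose, 0.31 ± 0.04 at the medium dose and 0.38 ± 0.04 at the high dose. Atp5f1a was called lower in the obese control and higher at the medium dose (0.09 ± 0.02) and the high dose (0.12 ± 0.02), but differed by 0.00 ± 0.02 with orlistat and 0.02 ± 0.02 at the low dose. Uqcrc1, the other core protein of complex III, rose by 0.08 ± 0.03 at the high dose and was at -0.04 ± 0.03, with no call, under orlistat.

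The opposite order, higher in the obese control and lower in at least 3 of the 4 treatments, held for 37 members. These comparisons share the obese control libraries, so the counts of 3 and 37 only show how the genes described here were picked. Atp5f1e, the epsilon subunit of ATP synthase, had the smallest F-test p of all of them (chromosome 3, 172563105 to 172566010, minus strand, 375 bases). Its level was 267, 259 and 264 FPKM in the normal control and 362, 356 and 375 in the obese control. It was 225, 221 and 216 FPKM with orlistat, 279, 292 and 282 at the low dose, 299, 293 and 301 at the medium dose and 247, 238 and 231 at the high dose. Obese control libraries were above all others, orlistat and high-dose libraries were below the normal control, and the low and medium doses lay between the controls. The log2 differences were 0.47 ± 0.03 in obese against normal control and -0.72 ± 0.03, -0.36 ± 0.03, -0.29 ± 0.03 and -0.61 ± 0.03 with the 4 treatments (limma, adjusted p 6.9e-10, 7.2e-12, 5.7e-08, 3.9e-07 and 5.3e-11).

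Ndufa13, an accessory subunit of complex I also known as GRIM-19, was at 123, 118 and 129 FPKM in the normal control and 183, 172 and 184 in the obese control. It was at 108, 119 and 119 FPKM with orlistat, 148, 148 and 144 at the low dose, 144, 148 and 146 at the medium dose and 122, 128 and 127 at the high dose. Orlistat and the high dose overlapped the normal control, and the low and medium doses overlapped each other but neither control. Cox4i1, the regulatory subunit IV of cytochrome c oxidase, was at 398, 386 and 394 FPKM in the normal control, 496, 503 and 523 in the obese control, 382, 391 and 375 under orlistat and 419, 400 and 404 at the high dose. The low and medium doses, at 449 to 478 FPKM, lay between these groups and the obese control. Cox4i1 differed from the obese control by -0.40 ± 0.02 with orlistat and -0.31 ± 0.02 at the high dose, and its differences at the low dose (-0.11 ± 0.02) and the medium dose (-0.14 ± 0.02) lost the call in TPM.

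Ndufb7, an accessory subunit of complex I, was at 87.9, 90.0 and 98.7 FPKM in the normal control and 127, 120 and 134 in the obese control. It was at 85.6, 84.1 and 81.1 FPKM with orlistat, 111, 111 and 110 at the low dose, 105, 107 and 108 at the medium dose and 90.3, 84.6 and 87.2 at the high dose. The high dose and the normal control overlapped, and the high-dose difference of -0.53 ± 0.04 was the largest called fall of complex I. Cox7a2, the liver form of subunit VIIa, fell by 0.51, 0.26, 0.41 and 0.49 on the log2 scale with orlistat and at the low, medium and high dose, the largest called fall of complex IV in each. Ndufa9, Atp5pd and Cox7b showed the same order: Ndufa9 was 0.39 ± 0.03 higher in obese than in normal control, and -0.31 ± 0.03 with orlistat against the obese control. Ndufa4 was 0.18 ± 0.03 higher in the obese control, and its values against the obese control were -0.38 ± 0.03 with orlistat and -0.26 ± 0.03 at the high dose.

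**Figure D3:**
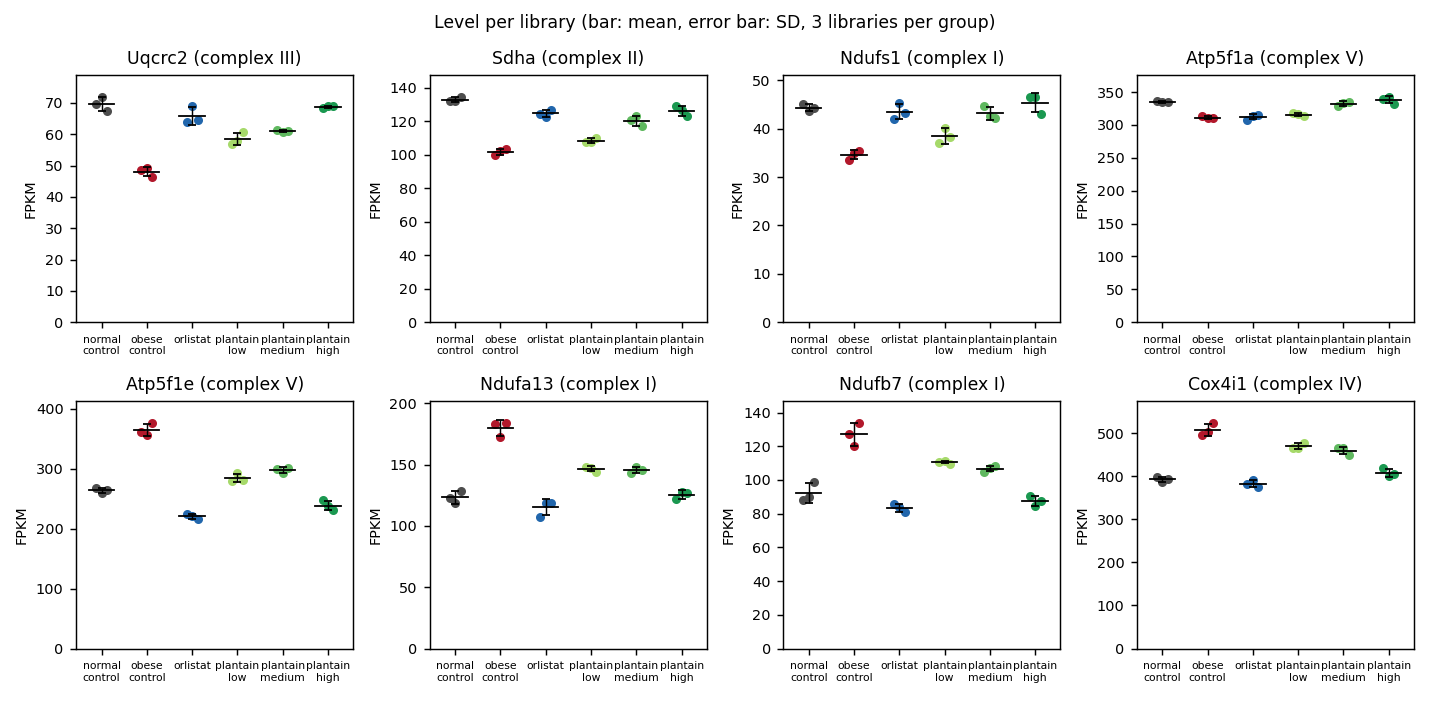
FPKM (y axis, from 0) of Uqcrc2, Sdha, Ndufs1, Atp5f1a, Atp5f1e, Ndufa13, Ndufb7 and Cox4i1 in the 6 groups (x axis); points are libraries, bars the mean and error bars the SD of 3 libraries. The obese control is lowest in Uqcrc2, Sdha and Ndufs1 and highest in Atp5f1e, Ndufa13, Ndufb7 and Cox4i1.

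Some members departed from these orders in part or in full. Uqcr10, a small accessory subunit of complex III, was 1 of the 37 members, at means of 34.9 FPKM in the normal and 47.5 in the obese control. It had the largest fall with orlistat, -0.82 ± 0.12, and fell at the medium (-0.51 ± 0.12) and high dose (-0.54 ± 0.12). At the low dose it was at 46.0, 41.5 and 64.2 FPKM against 54.1, 44.6 and 43.7 in untreated obese liver, so that the groups overlapped. Cox7a2l, a factor that joins complexes III and IV, was at 49.4, 49.8 and 50.6 FPKM at the low dose and at 37.3 to 43.9 FPKM in all 15 other libraries. Its low-dose difference of 0.19 ± 0.04 was the 1 rise of complex IV in that comparison (adjusted p 0.00069). Cox8a was the 1 rise of complex IV at the medium dose (0.11 ± 0.03), a call that was lost without obese control replicate 1 (adjusted p 0.079), without obese control replicate 2 (0.051) or without medium-dose replicate 1 (0.087).

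The ATP synthase inhibitor Atp5if1 was at 23.0, 23.5 and 25.7 FPKM at the low dose and 22.6, 17.1 and 20.2 in the obese control. The difference of 0.27 ± 0.10 had an adjusted p of 0.044 and was lost without any single 1 of 5 libraries of the comparison (adjusted p 0.056 to 0.21 without obese control replicate 2 or 3 or any low-dose replicate). Among the 8 assembly factors, 2 rose and 2 fell in the obese control, near the shares of all genes (26.7% and 28.4%). Ndufaf8 rose by 0.53 ± 0.07 there and was -0.46 ± 0.07 at the high dose against the obese control, and Ndufaf1 went the other way (-0.20 ± 0.08 and 0.29 ± 0.08). Ndufaf6 fell at the low dose, at 3.54, 4.39 and 4.23 FPKM against 5.84, 5.52 and 5.13 in the obese control. At the medium dose none of the 8 was called in either direction by limma on FPKM, by voom or at an unadjusted p under 0.05, and TPM gave 2 rises.

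High dose and orlistat differed in fewer members. Against orlistat, 18 members were higher and 1 lower at the high dose (8.45% and 6.67% of all genes), with a median difference of 0.05 against 0.00 over all genes. TPM gave 18 and 0 (8.35% and 5.78% of all genes), quantile normalization 7 and 3 (7.16% and 7.2%), and removal of the trend with gene length 10 and 2 (7.78% and 6.68%). The rises in FPKM were 4 in complex I, 1 in complex II, 3 in complex III, 3 in complex IV and 7 in complex V. Ndufb8 had the largest, at 104, 106 and 103 FPKM against 88.1, 89.4 and 87.9 with orlistat (0.23 ± 0.02, adjusted p 2.2e-06). Its high-dose level was not distinguished from the obese control, at 106, 109 and 108 FPKM (-0.04 ± 0.02, adjusted p 0.14). Sdhb (0.13 ± 0.03), Uqcrq (0.19 ± 0.05), Ndufa4 (0.12 ± 0.03) and Atp5mg (0.14 ± 0.03) led the other complexes. The 1 fall was Ndufaf8, at 16.1, 18.1 and 14.0 FPKM against 19.1, 18.7 and 19.2. Its adjusted p of 0.035 became 0.069 to 0.15 without any orlistat replicate or without high-dose replicate 1 or 3.

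High and low dose differed in 36 members, 8 higher and 28 lower at the high dose (16.2% and 16.4% of all genes), with a median of -0.09. In TPM 22 were higher and 11 lower, with a median of 0.04, while all genes moved to 33.5% higher and 6.92% lower with a median of 0.11. Members called the same way in both scalings, after quantile normalization and with the length trend described next removed were 8 higher (9.41% of the members, 12.4% of all genes) and 11 lower (12.9% and 6.67%). Those higher were Uqcrc2, Sdha, Ndufs1, Uqcrc1, Atp5f1a, Atp5f1b, Ndufb8 and Ndufaf6, and those lower included Atp5f1e, Ndufa11, Ndufb7, Cox7a2 and Uqcr10. Over all 6 groups, an F-test called 72 of the 85 members (72.1% of all genes). Those not called included Ndufa1, Ndufa10, Ndufa12, Sdhc, Cox5a, Cox5b and Atp5pb.

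The differences of members moved with gene length, and so did those of the other genes. In obese against normal control, Spearman's rho between length and log2 difference was -0.51 across the 85 members and -0.26 across 10570 other protein-coding genes, given as a description over genes of the same libraries. Against the obese control it was 0.42 and 0.31 with orlistat, 0.40 and 0.10 at the low dose, 0.35 and 0.19 at the medium dose, and 0.53 and 0.25 at the high dose. Of the 54 members under 1000 bases, 41 rose and 2 fell in the obese control, while of 1225 other protein-coding genes of that length 40.5% rose and 9.39% fell. With orlistat 0 of the 54 rose, also at an unadjusted p under 0.05 and by voom, and 38 of the 54 fell. Of the other genes of that length 9.31% rose and 39.8% fell. At the low dose 30 of the 54 fell and 17.4% of the others, at the medium dose 26 of the 54 and 26.7%. At the high dose 39 of the 54 fell and 37.6% of the others. In each treatment the share that fell was larger among the members. The part of length in these differences was not tested.

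When the length trend was taken out of each library, the members had fewer rises and more falls in the obese control, and more rises and fewer falls in each treatment. In untreated obese liver 30 members were then higher and 19 lower (27.2% and 25.9% of all genes), with orlistat 12 and 37 (24% and 24.4%), at the low dose 7 and 28 (17% and 15.4%), at the medium dose 16 and 20 (19.9% and 20.3%) and at the high dose 16 and 33 (24.4% and 24.4%). Accessory subunits then gave 26 rises and 3 falls in the obese control, and core subunits 3 rises and 13 falls. All 4 subunits of complex II were lower in the obese control on that scale. Against the obese control accessory subunits gave 4 rises and 30 falls with orlistat and 4 and 26 at the high dose, and core subunits gave 6 and 7 and then 11 and 6.

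Members called in 1 direction on all 4 scales (FPKM, TPM, quantile normalization and the length trend removed) numbered 27 higher and 9 lower in the obese control. This is 31.8% and 10.6% of the members, beside 15.9% and 22.7% of all genes. The 9 lower were Atp5f1a, Ndufaf4, Ndufs1, Ndufv2, Sdha, Sdhb, Sdhd, Uqcrc1 and Uqcrc2. The 27 higher included Atp5f1e, Ndufa13, Ndufb7, Ndufa9, Cox4i1, Cox7a2, Uqcrq and Ndufs7. With orlistat 4 were higher (Ndufs1, Sdha, Uqcrc2 and Ndufaf1) and 31 lower, which is 4.71% and 36.5% of the members beside 20.7% and 12.5% of all genes. At the low dose 4 and 24 (4.71% and 28.2%) stood beside 15.9% and 10.4%, and at the high dose 7 and 27 (8.24% and 31.8%) beside 21.7% and 11.9%. At the medium dose 6 were higher and 11 lower (7.06% and 12.9%, beside 18.2% and 11.9%), so that the share of falls was near that of all genes. The 6 higher at the medium dose were Atp5f1a, Atp5mg, Cox8a, Ndufs1, Sdha and Uqcrc2, and the 11 lower included Atp5f1e, Ndufa13, Ndufb7, Cox7a2, Cox7b, Atp5pd and Uqcr10.

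**Figure D4:**
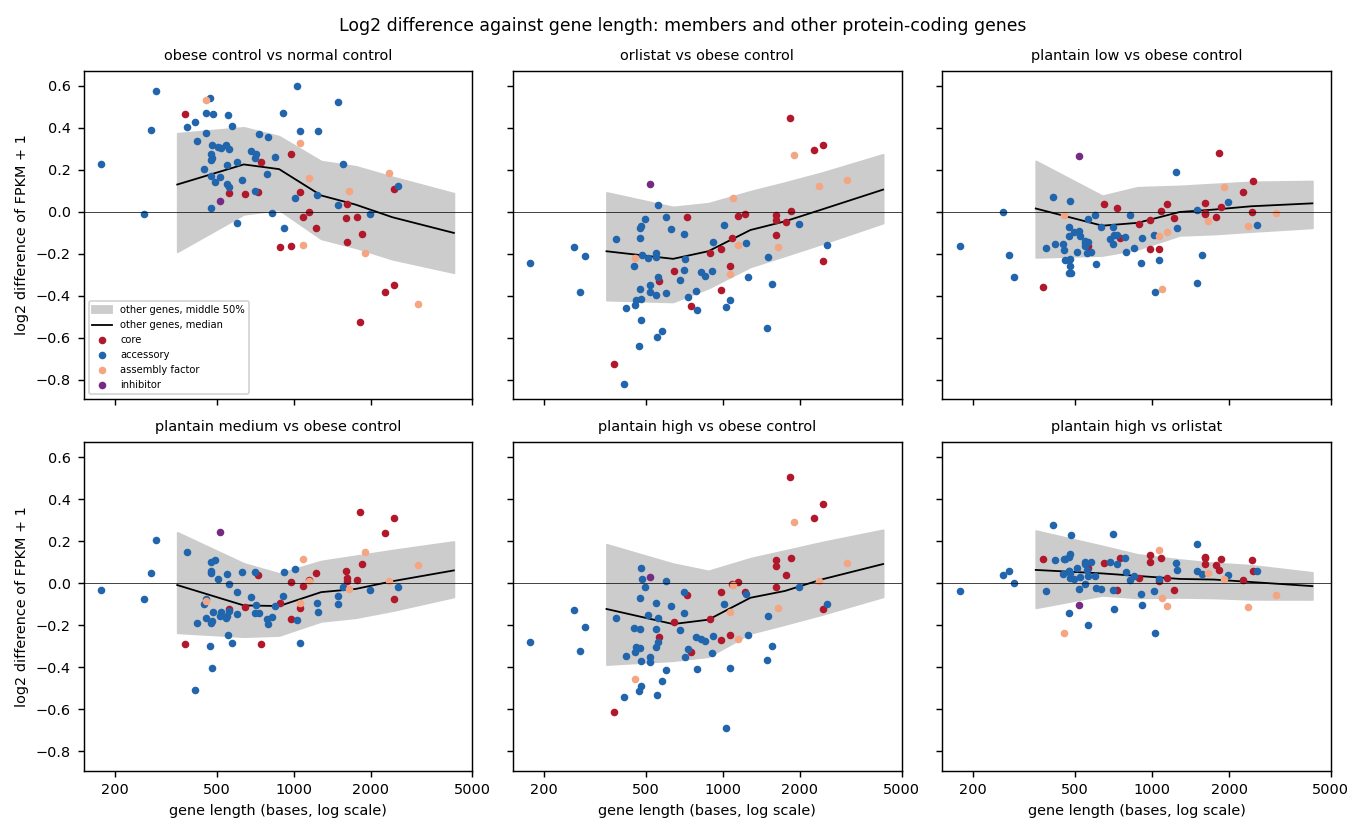
Log2 difference of FPKM + 1 (y axis) against gene length in bases (x axis, log scale) for the members (points, coloured by role; Ndufa1 and Atp5pb not drawn) and the other protein-coding genes (line, median per length class; grey band, their middle 50%) in 6 comparisons. Short genes of both kinds are higher in the obese control and lower under orlistat and at the high dose, and the members under 1000 bases have a median of 0.25 against 0.19 in the first panel.

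Markers of other liver cells also differed between the groups. The summed level of 7 Kupffer cell markers, all found, was 111 to 114 FPKM in normal control liver, 191 to 197 in obese control liver, 201 to 212 under orlistat, 237 to 250 at the low dose, 155 to 162 at the medium dose and 158 to 161 at the high dose. For 5 of 6 endothelial markers found the ranges in that order were 40.6 to 41.0, 54.0 to 56.1, 79.4 to 80.5, 75.5 to 77.3, 77.8 to 79.0 and 90.6 to 91.2 FPKM. None of the markers of either list was under 1 FPKM. For 4 of 5 red blood cell markers found, 1 of them under 1 FPKM, the ranges in that order were 196 to 210, 363 to 437, 273 to 378, 247 to 287, 279 to 354 and 266 to 322 FPKM. The part of these cell types, or of hepatocytes, in the members' differences was not tested. In such bulk samples fewer cells of a type and less RNA per cell cannot be told apart.

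Partner genes of the pathway did not all follow the small subunits. The 13 mitochondrially encoded subunits gave 11 rises and no fall in the obese control (none at an unadjusted p under 0.05), with a median of 0.35, where 26.7% of all genes rose and 28.4% fell. The rises were 8 in TPM (median 0.22), 8 with the length trend removed (0.21) and 3 after quantile normalization (0.07). Against the obese control 13 fell with orlistat, 8 at the low dose, 12 at the medium dose and 13 at the high dose, with medians of -0.58, -0.25, -0.36 and -1.05 (25.6%, 14.8%, 20.1% and 25.3% of all genes fell). None rose in any of the 4, at an adjusted or an unadjusted p under 0.05 or by voom. On the other scales the falls were 10 to 12 with orlistat, 5 to 8 at the low dose, 10 or 11 at the medium dose and 12 or 13 at the high dose. Between high dose and orlistat 12 of the mitochondrial transcripts were lower at the high dose in FPKM (median -0.52), 13 in TPM, 9 after quantile normalization and 13 with the length trend removed. COX1, a catalytic subunit of complex IV, was 0.40 ± 0.04 higher in the obese control.

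Enzymes of the citric acid cycle, which supplies NADH to complex I and succinate to complex II, took the order of Sdha. Of 13 tested among 14 listed, 1 rose and 9 fell in the obese control, where 26.7% of all genes rose and 28.4% fell. In the treatments 26.2%, 18.3%, 21.8% and 26.6% of all genes rose, in the order given next. Against the obese control 9, 8, 10 and 9 rose with orlistat and at the low, medium and high dose, and Mdh2 fell with orlistat and at the high dose (-0.10, a call lost with the length trend removed, adjusted p 0.35). The largest was Ogdh, of the oxoglutarate dehydrogenase complex, at 7.13 FPKM in obese and 11.5 in normal control liver (-0.62), with rises of 0.70, 0.30, 0.55 and 0.69. Removing the length trend left 1 rise and 10 falls in the obese control, and 8, 8, 10 and 8 rises in the treatments. On that scale 27.2% of all genes rose and 25.9% fell in the obese control, and 24%, 17%, 19.9% and 24.4% rose in the treatments.

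Of 12 regulators of mitochondrial genes, 1 rose and 7 fell in the obese control, and 4, 2, 2 and 6 rose in the treatments, with 1 fall under orlistat, 1 at the low dose and 2 at the high dose. Over all genes 26.7% rose and 28.4% fell in the obese control, and 26.2%, 18.3%, 21.8% and 26.6% rose in the treatments. The regulators' rises with orlistat and at the low and medium dose were near these shares. Ppargc1a, the coactivator of mitochondrial biogenesis, was at 0.404 FPKM in obese and 1.44 in normal control liver (-0.80). It rose with orlistat (0.32), at the low dose (0.51) and at the high dose (0.45). The obese control lay under the filter level of 1 FPKM, and at such levels the differences depend strongly on the 1 added before the logarithm. The ETS factor Gabpa fell in the obese control (-0.30, and -0.19 with adjusted p 0.053 when the length trend was removed) and rose with orlistat (0.44) and at the high dose (0.39), while Nrf1 was not called in any of the 5 comparisons. Cytochrome c (Cycs), the carrier between complexes III and IV, followed the small subunits, with 0.29 in obese against normal control and -0.28 with orlistat.

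Assembly genes were mixed. Of 18 tested factors of complex IV, 8 rose and 3 fell in the obese control (26.7% and 28.4% of all genes), and 3 rose and 8 fell with orlistat (26.2% and 25.6%). Cox17, a copper chaperone, was 0.64 in obese against normal control and -0.39 at the high dose against the obese control (-0.22 with adjusted p 0.053 when the length trend was removed), whereas Cox15, of heme A synthesis, was -0.43 and 0.50. For complex III, 4 of 6 rose in the obese control and 2 were not called, and Uqcc2 led with 0.74. The 7 further factors of complex I gave 2 rises and 2 falls, the 3 of complex II 1 and 1, and the 4 of complex V 1 and 1, beside 26.7% and 28.4% of all genes. Of 11 genes of the outer membrane and of protein import, 1 rose and 4 fell, among them Tomm70 (-0.64). Of 11 genes of the mobile carriers and ubiquinone synthesis, 3 rose and 1 fell. These counts also stand beside 26.7% and 28.4% of all genes, and the 3 rises were near that share.

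Several members have similar gene rows in the table, between which reads may be split, and their values are uncertain. Ndufa1, an accessory subunit of complex I, was at 26.2, 59.9 and 0.712 FPKM in the normal control, 17.4, 1.20 and 2.58 in the obese control and 0.666, 1.58 and 77.1 with orlistat. At the doses it ranged from 0.247 to 91.9 FPKM, so that every group with a high library also held one under 3 FPKM. No comparison of Ndufa1 was called, with a standard error of 1.62. Atp5pb, a stalk subunit of ATP synthase, ranged from 0.751 to 8.66 FPKM and was not called either. Cox6b1 and Uqcrb have 2 rows each, of which the Cox6b1 row on chromosome 1 differed by 0.24 ± 0.04 and that on chromosome 2 by -0.01 ± 0.08 in obese against normal control. The Uqcrb row on chromosome 1 averaged 68.2 FPKM over all libraries and that on chromosome 7 17.6. From normal to obese control they went from 60.6 to 71.8 FPKM and from 14.7 to 22.8 FPKM. Cox5b also varied widely within groups, with 168, 170 and 262 FPKM in the obese control and 182, 121 and 128 in the normal control, and its difference of 0.47 ± 0.20 was not called (adjusted p 0.057).

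**Figure D5:**
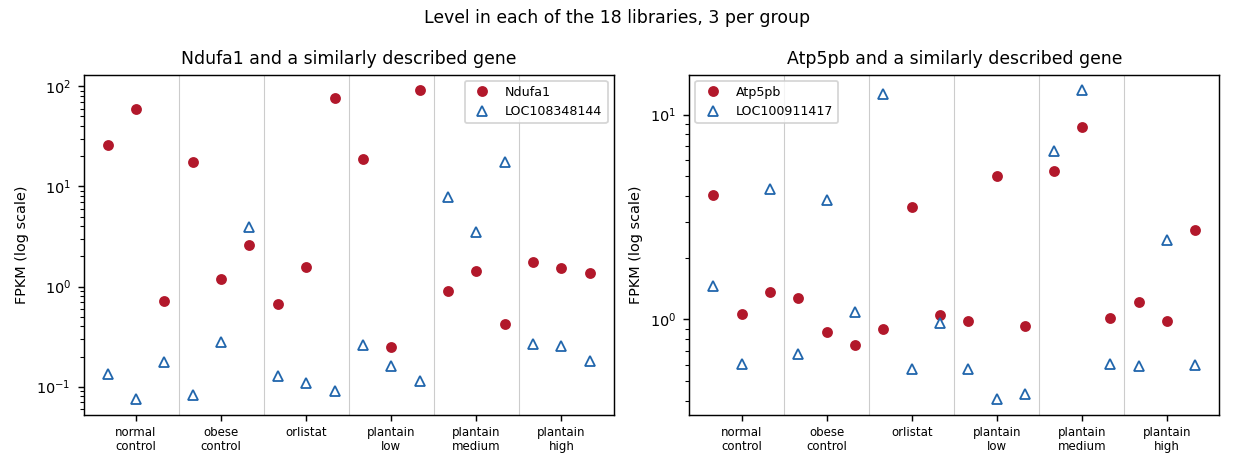
FPKM (y axis, log scale) of Ndufa1 and Atp5pb, each with another row of the table (LOC108348144 and LOC100911417) that is described as the same subunit or one like it, in the 18 libraries (x axis, 3 per group). Levels scatter within groups, for Ndufa1 from 0.247 to 91.9 FPKM over all libraries.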

How the data were processed

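RNA of 18 liver libraries was analysed, 3 in each of 6 groups. The authors deposited 1 table of FPKM per gene; the submitters' processing notes list CASAVA 1.7 and Bowtie 0.12.2, and no rat build, annotation or strand setting is given in the sources used here. FPKM times gene length gave whole reads for 100% of genes (tolerance 0.001). Groups were compared on log2(FPKM + 1) with limma 3.58.1 (R 4.3.3), keeping the 11945 genes that reached 1 FPKM in 3 or more libraries, with all groups fitted together and a mean-variance trend. Tests were two-sided, with Benjamini-Hochberg adjustment over all genes tested and a threshold of 0.05. With 3 against 3 libraries an exact permutation test cannot go below 0.1.

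Alternatives were a pseudocount of 0.1, no filter, TPM, quantile normalization, a fit of 2 groups, a replicate block, voom on the recovered reads and leaving out each library. Removing each library's trend with gene length was added after the data were seen. The script was tested on simulated data. The members, the gene lists and the alternatives were chosen with earlier results of these data known. Genes named are the highest and lowest of each complex, the largest called changes per complex and comparison whose groups do not overlap, up to 8 called in opposite directions in obesity and treatment, and subunits fixed by role. Replicate numbers do not pair the libraries: over 45 same-numbered pairs the correlation of deviations was -0.09 to 0.07.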

Additional observations from a re-analysis of the deposited data

How the results depend on the processing

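Counts are of the 85 members called. In obese against normal control removing the length trend gave 30 higher, and the lower calls were 19 in TPM and 19 with the length trend removed. With orlistat the higher calls were 21 in TPM, 9 after quantile normalization, 9 by voom and 12 with the length trend removed, and the lower calls 33 in TPM. At the medium dose the higher calls were 26 in TPM, 19 after quantile normalization, 17 by voom and 16 with the length trend removed, and the lower calls 12, 19, 19 and 20. At the high dose the higher calls were 21, 12, 12 and 16 and the lower calls 28 in TPM. For high dose against orlistat the higher calls were 7 after quantile normalization, 10 by voom and 10 with the length trend removed; the 1 lower call became 0 with no filter, 0 in TPM, 3 after quantile normalization, 0 with the replicate block, 0 by voom, 2 with the length trend removed and 0 in a fit of 2 groups, and ran from 0 to 2 with 1 library left out. For high against low dose the higher calls were 22 in TPM, 13 after quantile normalization, 14 by voom and 15 with the length trend removed, and the lower calls 11 in TPM, 18 by voom and 18 with the length trend removed. No call of a member picked by the naming rule changed sign under the alternatives run, whereas the balance of rises and falls over all members turned in TPM at the medium dose and for high against low dose; the causes were not tested. With the replicate block the obese control gave 49 higher and 10 lower, the medium dose 8 and 27, and the F-test 70; the numbers do not pair the libraries. Ndufa1 and Atp5pb vary widely within groups, and whether their reads are split between similar rows was not tested; members at a few FPKM rest on fewer reads.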
